A study of Mus musculus with 19 samples.

Results

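Albumin and 8 other plasma carrier proteins that the liver secretes were followed as transcripts in mouse hepatocytes, the parenchymal cells that make most plasma proteins. The 9 genes are Alb, Afp, Ttr, Trf, Gc, Ahsg, Fetub, Rbp4 and Serpina6. Each was found once by its symbol among the 24537 genes of the deposited count table. They were listed by name, with earlier results on these libraries known. One measured value entered the selection of libraries: the level of Saa2, an acute-phase gene, in young mice.

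The libraries came from male wild-type C57BL/6J mice, 10 young (5 months) and 9 old (24 months), and the labels name no treatment or transgene for either age. Poly(A) RNA of hepatocytes was sequenced from animals culled on 2 dates separated by 23 days. Both ages were culled on both dates, with 5 young and 5 old libraries from the earlier date (the first cull day) and 5 young and 4 old libraries from the later one (the second). Each library is named by its number, and the labels do not say whether each is a separate mouse. Counts over genes ranged from 17381439 to 20287628 per library. Levels are given as CPM, each library's counts scaled to a common total, after trimmed mean of M-values (TMM) scaling with factors of 0.946 to 1.16. Comparisons between genes use CPM per kilobase of transcript.

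Plasma carriers bind small molecules that are poorly soluble, reactive or filtered by the kidney, and keep them in circulation. Albumin carries fatty acids, bilirubin, drugs and metals and holds most of the colloid osmotic pressure of plasma. Hepatocytes secrete most of these proteins. In the acute-phase response to injury or infection the liver raises some secreted proteins, such as serum amyloid A, and lowers others. Albumin, transthyretin and retinol binding protein are classed as negative acute-phase proteins.

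Young libraries 1184, 1186 and 1188 had Saa2 above the limit of 1000 CPM of counts over genes, at 6103, 9663 and 3664 CPM. The next young library stood at 21.7 CPM, and the other 7 young libraries began at 8.92 CPM. The highest old library, 1187, had 556 CPM. All 3 high libraries were from the first cull day, which leaves 2 young libraries there when they are left out. Saa2 and Saa1 are close copies, so reads may have been divided between them. The 3 libraries are called high-Saa2 young libraries here, and age results of the 9 genes are given with and without them.

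Alb, Afp and Gc belong to 1 gene family, and all 3 lie on chromosome 5 of mm10 (GRCm38). Alb spans 90460870 to 90476602 and Afp spans 90490714 to 90508907, both on the plus strand, with a gap of 14111 bases and no other gene of the table between them. Gc spans 89417511 to 89457898 on the minus strand. Promoter windows of 6 of the 9 genes were searched. The reference held no window for Trf or Serpina6, and Ttr was left out of the search. The 120 bases before each annotated start (RefSeq, GRCm38.p6) are shown because these relatives are read at very different levels. Capitals mark the letters GTTAAT, the core of the HNF1 half-site, searched on both strands.
Alb, chr5:90460750-90460869, plus strand: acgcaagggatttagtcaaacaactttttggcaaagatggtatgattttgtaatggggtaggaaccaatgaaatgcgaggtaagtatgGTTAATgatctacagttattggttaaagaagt
Afp, chr5:90490594-90490713, plus strand: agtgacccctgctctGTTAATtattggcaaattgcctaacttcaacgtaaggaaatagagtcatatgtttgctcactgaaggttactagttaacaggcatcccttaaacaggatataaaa
Gc, chr5:89457899-89458018, minus strand: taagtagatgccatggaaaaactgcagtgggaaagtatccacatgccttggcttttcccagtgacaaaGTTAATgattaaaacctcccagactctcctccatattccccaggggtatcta

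GTTAAT occurred once in each of the 3 windows, starting at -32 for Alb, -105 for Afp and -52 for Gc relative to the annotated start. It occurred in 7.10% of the 32851 promoter windows of 300 bases in the reference, and not in the windows of Ahsg, Fetub or Rbp4. The CCAAT letters, searched on both strands, were in 37.4% of all windows. They were found in all 6 genes searched, at -56 and -15 in Alb, -98 in Afp, -225 in Gc and 23 in Ahsg. For Fetub and Rbp4 a window at another RefSeq start was searched as well, and only that window held matches. These were at -218 and 45 from 22918382 in Fetub, and at -162 from 38125321 in Rbp4. The windows at the starts of the counted transcripts, 22920222 for Fetub and 38124811 for Rbp4, held none. No CCAAT match shared a base with a GTTAAT match. A match describes letters only.

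The genes differed in level far more than the ages did. Alb led, with 46286 ± 11271 CPM per kilobase at 5 months (SD, n = 10) and 63054 ± 11451 CPM per kilobase at 24 months (SD, n = 9). Trf, the iron carrier transferrin, followed at 7282 ± 1634 and 9058 ± 1282 CPM per kilobase. Alb was therefore 6.36 times the level of Trf in young and 6.96 times in old libraries.

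A group of genes held a middle range. Ttr, which carries thyroxine and the retinol binding protein complex, stood at 5326 ± 1546 CPM per kilobase in young libraries (SD, n = 10). Ahsg, the calcification inhibitor fetuin-A, stood at 4765 ± 577, and Gc, the vitamin D binding protein, at 3571 ± 272. Rbp4, the retinol carrier, stood at 2651 ± 505. Ranges over young libraries overlapped between each pair of neighbours from Trf down to Rbp4. Trf exceeded Ttr in 8 of 10 young libraries and Ttr exceeded Ahsg in 7, so these ranks were not fixed. In old libraries Trf lay above Ttr, and Gc above Rbp4, with no overlap.

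Fetub, fetuin-B, and Serpina6, the corticosteroid binding globulin, were lower, at 265 ± 38.6 and 89.1 ± 29.1 CPM per kilobase in young libraries (SD, n = 10). Afp, the fetal counterpart of albumin, was lowest at 0.449 ± 0.132 CPM per kilobase. Alb exceeded its neighbour Afp 103125 times per kilobase in young libraries and 107129 times in old libraries, or 161846 times in the 8 old libraries other than 1187. The order of means was the same at both ages.

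**Figure D1:**
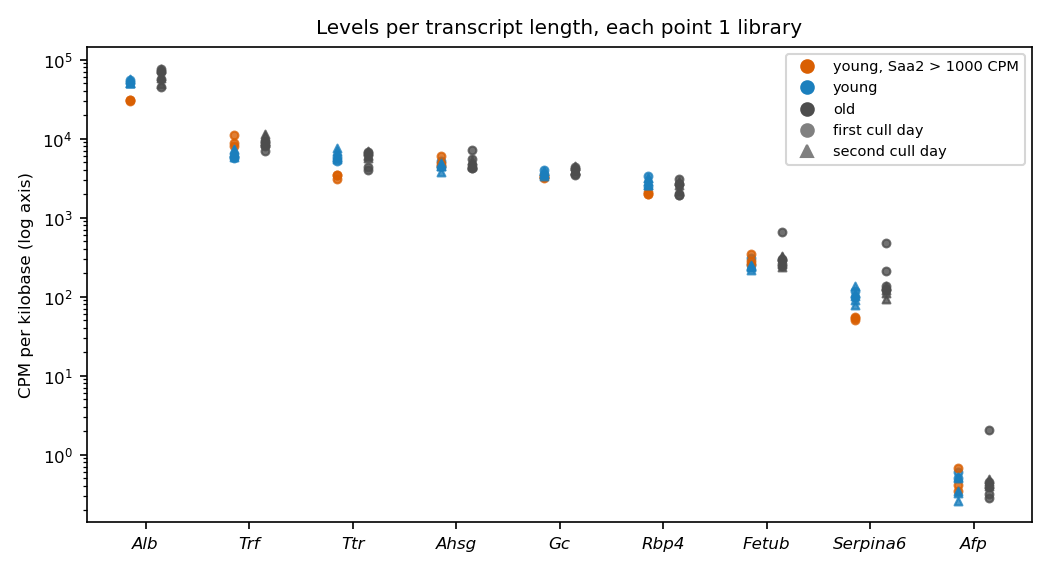
CPM per kilobase of transcript (log axis) of the 9 genes in each library, young on the left and old on the right of each pair, ordered by the young mean. Alb stands above all others in every library, the genes from Trf to Rbp4 overlap from one to the next in young libraries, and Afp is lowest in every library, at no more than 2.07 CPM per kilobase, the value of old library 1187.

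Across ages, 2 of the 9 genes passed the threshold (adjusted p of 0.05 in edgeR over 12269 genes tested), both higher in old mice, and none was lower. Over all genes tested 30.9% passed, 16.3% higher and 14.5% lower, so a count of 2 of 9 stands near the background. At an unadjusted p under 0.05, 4 of the 9 were higher and 0 lower, against 42.3% of all genes in either direction. DESeq2 called 4 higher and 0 lower (33.5% of all genes, 16.3% higher and 17.2% lower). For limma-voom the counts were also 4 and 0 (32.6%, 16.9% and 15.7%). With library totals alone as the scale 4 were higher (17.1% of all genes). The median log2 fold change was 0.27 over the 9 genes and -0.003 over all genes tested, with 8 of the 9 positive. No gene of the 9 had every old library above every young one, as 0.978% of genes tested did, or every old library below, as 0.725% did. The same held against the 7 other young libraries alone, where 2.23% of genes had every old library above. Without the high-Saa2 young libraries 1 of the 9 passed, against 27.2% of 12354 genes (14.6% higher and 12.5% lower), and it was a different gene, Trf.

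Alb was the most abundant of the 9 in each library. In young libraries it ranged from 61124 to 116262 CPM with a median of 103770, and in old libraries from 92945 to 157384 with a median of 128004. The 3 high-Saa2 young libraries lay below every other library, and 7 of 9 old libraries lay above every young one. Old libraries 1187 (92945 CPM) and 1236 (100795 CPM) were the 2 lowest at that age and fell below all 7 other young libraries. Mean Alb was 94608 ± 23037 CPM at 5 months (SD, n = 10) and 128882 ± 23406 CPM at 24 months (SD, n = 9).

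The log2 fold change of Alb was 0.47 (SE 0.154, edgeR adjusted p = 0.0262), a 1.39-fold rise. When the high-Saa2 young libraries were left out, the young mean was 108607 ± 5813 CPM (SD, n = 7). The log2 fold change was then 0.23 (SE 0.123) and did not pass (edgeR adjusted p = 0.167). It was 0.70 on the first cull day (edgeR adjusted p = 0.128) and 0.22 on the second (edgeR adjusted p = 0.241). The call was also lost without young library 1188 (edgeR adjusted p = 0.0512), old library 1242 (edgeR adjusted p = 0.0538) or the filter on low counts (edgeR adjusted p = 0.0624).

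Serpina6, on chromosome 12 (103646631 to 103657218, minus strand), encodes the globulin that carries corticosterone in mouse plasma. It ranged from 81.3 to 218 CPM in young libraries with a median of 153, and from 148 to 758 CPM in old libraries with a median of 198. Young libraries 1184, 1186 and 1188 were again the 3 lowest, and 4 of 9 old libraries lay above every young library. Old library 1189 had 758 CPM and the next, 1181, had 339 CPM.

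Its log2 fold change was 0.89 (SE 0.292, edgeR adjusted p = 0.0274). Without the high-Saa2 young libraries it was 0.47 (SE 0.283, edgeR adjusted p = 0.222). Leaving out library 1184, 1186 or 1188 alone was enough to lose the call (edgeR adjusted p = 0.0534, 0.0516 and 0.0568). Without old library 1189 the log2 fold change was 0.58, which passed (edgeR adjusted p = 0.0307). The age difference was 1.51 with the first cull day alone and 0.18 with the second alone. That gap between days of -1.34 had an SE of 0.492 and an unadjusted p of 0.0139 in edgeR, and did not pass over all genes (edgeR adjusted p = 0.708). Of all genes 0.0% passed that interaction in edgeR, with 6.51% at an unadjusted p under 0.05, and 0.0815% passed in DESeq2, none of them among the 9.

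Trf, on chromosome 9 (103208876 to 103230286, minus strand), encodes transferrin, which delivers iron to cells. Young libraries ranged from 12999 to 25395 CPM with a median of 16093, and old libraries from 16360 to 26124 CPM with a median of 20774. Here the high-Saa2 young libraries were the 3 highest of the young, at 18590, 20154 and 25395 CPM. The other 7 young libraries reached at most 16952 CPM, and 8 of 9 old libraries lay above all of those. The exception was old library 1189, at 16360 CPM.

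Over all 19 libraries the log2 fold change of Trf was 0.31 (SE 0.127) and missed the threshold (edgeR adjusted p = 0.0657). It passed there in DESeq2 (0.31, adjusted p = 0.0352), in limma-voom (0.40, adjusted p = 0.0105) and with library totals alone as the scale (0.36, edgeR adjusted p = 0.0396). Without the high-Saa2 young libraries it was 0.56 (SE 0.0883, edgeR adjusted p = 0.000801), a 1.47-fold rise. Mean Trf was then 14900 ± 1579 CPM at 5 months (SD, n = 7) against 20950 ± 2965 CPM at 24 months (SD, n = 9). Since Trf was higher in the libraries removed, leaving them out raises this estimate by construction. On the second cull day, which held no high-Saa2 library, it was 0.57 (edgeR adjusted p = 0.00378), the only 1 of the 9 genes to pass there, against 19.3% of 12362 genes. On the first cull day it was 0.087 (edgeR adjusted p = 0.815). None of the 9 passed on that day in edgeR, where 3.67% of 12260 genes did, and 2 had an unadjusted p under 0.05 (26.6% of genes). Trf also passed without young library 1186 (edgeR adjusted p = 0.0109) or old library 1189 (edgeR adjusted p = 0.0391) alone.

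**Figure D2:**
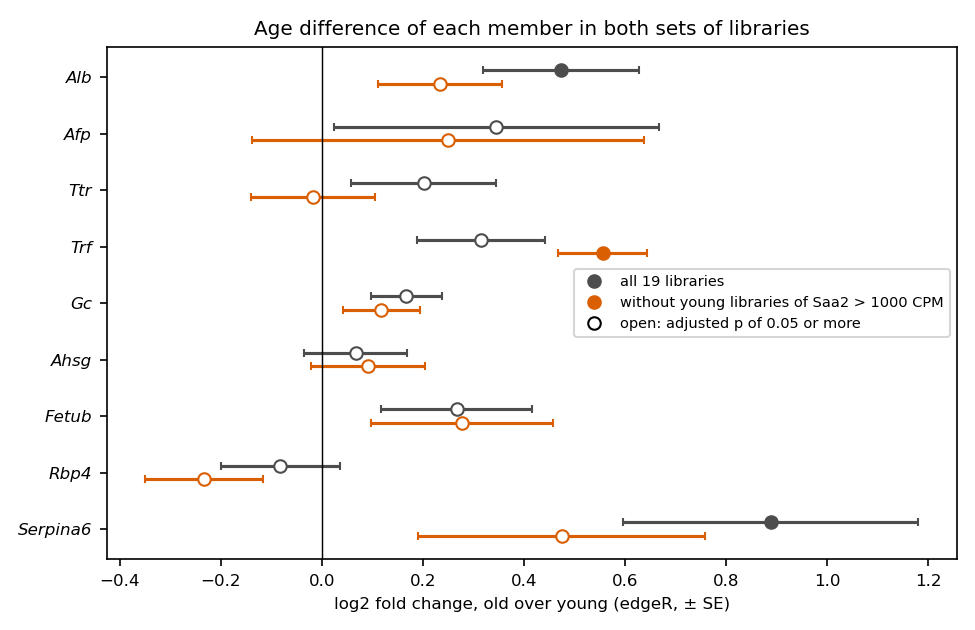
Log2 fold change of old over young for each gene, with its standard error, in all 19 libraries (grey) and without the 3 high-Saa2 young libraries (orange), where filled points passed an adjusted p of 0.05. Alb and Serpina6 are filled in the full set only, and Trf only without those libraries.

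Ttr and Rbp4 form one complex in plasma. Ttr ranged from 3764 to 9313 CPM in young and from 4840 to 8448 CPM in old libraries, with medians of 6896 and 7628. The 3 high-Saa2 young libraries, at 3764 to 4192 CPM, lay below all others. The log2 fold change was 0.20 (SE 0.144, edgeR adjusted p = 0.301) and -0.018 without those libraries (SE 0.123, edgeR adjusted p = 0.931).

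Rbp4, on chromosome 19 (38116620 to 38124811, minus strand), had the 1 negative estimate. It ranged from 1846 to 3112 CPM in young and from 1772 to 2878 CPM in old libraries, with medians of 2411 and 2421. High-Saa2 young libraries held 1846 to 1946 CPM, and old libraries 1187 and 1189 lay below them, at 1772 and 1805 CPM. The log2 fold change was -0.082 (SE 0.119, edgeR adjusted p = 0.63) and -0.23 without the high-Saa2 young libraries (SE 0.116, edgeR adjusted p = 0.145). Since Ttr and Rbp4, like Alb and Serpina6, were lower in the libraries removed, leaving them out lowers their estimates by construction.

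Gc, at 6417 ± 489 CPM in young (SD, n = 10) and 7184 ± 589 CPM in old libraries (SD, n = 9), had the smallest SD for its mean of the 9 genes at both ages. It ranged from 5786 to 7204 CPM in young and from 6216 to 7994 CPM in old libraries, with medians of 6365 and 7247, and 6 of 9 old libraries lay above every young one. Its log2 fold change was 0.17 (SE 0.0704, edgeR adjusted p = 0.0772), or 0.12 without the high-Saa2 young libraries (SE 0.0761, edgeR adjusted p = 0.26). Over all 19 libraries Gc passed in DESeq2 (0.16, adjusted p = 0.0189), in limma-voom (0.20, adjusted p = 0.0196) and when library totals alone set the scale (0.21, edgeR adjusted p = 0.0132), and also without young library 1182 (edgeR adjusted p = 0.044).

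The fetuins Ahsg and Fetub are neighbours on chromosome 16, at 22892015 to 22899451 and 22920222 to 22939768, with 20770 bases between them. A predicted gene on the other strand overlaps Ahsg, and although the labels name a stranded library, the strand setting of the counting is not given in the sources used here, so the value of Ahsg is uncertain to that extent. Ahsg ranged from 5741 to 9100 CPM in young and from 6352 to 10830 CPM in old libraries, and its age estimate was 0.067 on the log2 scale (SE 0.101, edgeR adjusted p = 0.646). Fetub ranged from 343 to 546 CPM in young and from 373 to 1035 CPM in old libraries, and its age estimate was 0.27 on the log2 scale (SE 0.149, edgeR adjusted p = 0.181). With the high-Saa2 young libraries left out, Ahsg was 0.092 (SE 0.113, edgeR adjusted p = 0.578) and Fetub 0.28 (SE 0.179, edgeR adjusted p = 0.261). Without old library 1189, the highest for both, the estimates were -0.0062 and 0.087, and neither passed.

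Afp is shut down in the liver after birth. It held 11 to 25 counts in young libraries and 11.5 to 98.5 counts in old libraries, all above the floor of 3 counts. In CPM that was 0.539 to 1.39 in young and 0.589 to 4.29 in old libraries. Only old library 1187 stood above every young library, and the other 8 old libraries held at most 19.5 counts. The log2 fold change was 0.35 (SE 0.322, edgeR adjusted p = 0.437) and -0.15 without library 1187 (edgeR adjusted p = 0.582). It was 0.25 without the high-Saa2 young libraries (SE 0.388, edgeR adjusted p = 0.667).

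**Figure D3:**
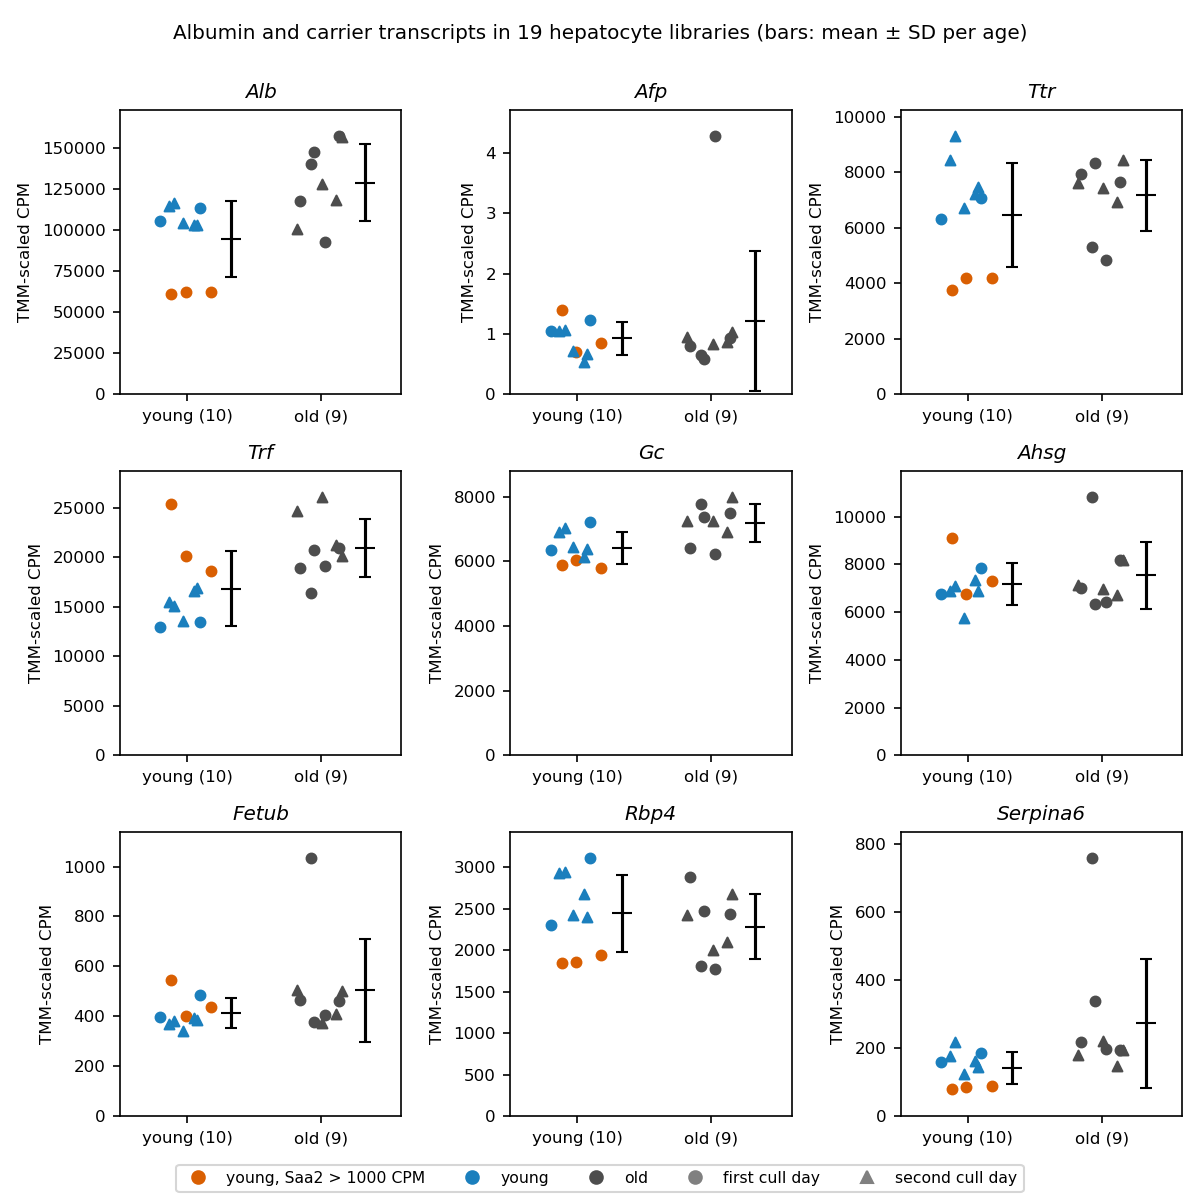
TMM-scaled CPM of each gene in the 19 libraries, young and old, with mean ± SD beside each group. Circles are the first and triangles the second cull day, and orange marks the high-Saa2 young libraries, which are the lowest young libraries for Alb, Ttr, Gc, Rbp4 and Serpina6 and the highest for Trf.

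The high-Saa2 young libraries are described against the other 7 young libraries without a test, since a measured value chose them. Alb averaged 61944 ± 739 CPM in them (SD, n = 3) and 108607 ± 5813 CPM in the others (SD, n = 7), which is 43.0% lower. Serpina6 was 49.2% lower, Ttr 46.1%, Rbp4 29.8% and Gc 11.0%. For these 5 genes all 3 libraries lay below all 7 others, as they did for 11.1% of genes tested. Trf was 43.5% higher, with all 3 above all 7 others, as for 9.45% of genes tested. Ahsg, Fetub and Afp overlapped, with 1 of the 3 libraries above all others for each.

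Against only the 2 other young libraries of the first cull day, the ratio of means was 0.565 for Alb, 0.493 for Serpina6, 0.603 for Ttr and 1.61 for Trf. Within a library, Trf had 34.6 ± 6.16 counts per 100 Alb counts in the 3 libraries (SD, n = 3) and 13.8 ± 1.80 in the other young libraries (SD, n = 7). Old libraries had 16.8 ± 4.35 (SD, n = 9). The same ratio for Ttr was 6.53 ± 0.321 and 6.90 ± 0.714, so Ttr and Alb were low by like amounts. For Serpina6 it was 0.138 ± 0.00574 and 0.154 ± 0.0205.

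Some markers of other cells differed in level between the same libraries. Summed macrophage markers were 228 to 486 CPM in the 3 high-Saa2 libraries and 100 to 268 CPM in the 7 others. Cholangiocyte markers summed to 30.9 to 170 CPM against 5.44 to 13.1 CPM, and neutrophil markers to 1.04 to 4.60 CPM against 0.110 to 0.673 CPM. For both sums all 3 libraries lay above all 7 others, as for 9.45% of single genes tested. Of the 5 cholangiocyte markers, 3 (Krt19, Krt7 and Epcam) were too low to test. Of the 4 neutrophil markers, S100a8, S100a9 and Retnlg were too low to test. Ranges overlapped for macrophage markers, and also for endothelial (178 to 286 and 167 to 311 CPM), stellate (66.4 to 115 and 43.1 to 123 CPM), lymphocyte (0.195 to 0.710 and 0.355 to 0.671 CPM) and hepatocyte markers (34076 to 36606 and 33072 to 41221 CPM). The part of these cells in the levels of Alb, Ttr, Serpina6 and Trf was not tested.

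**Figure D4:**
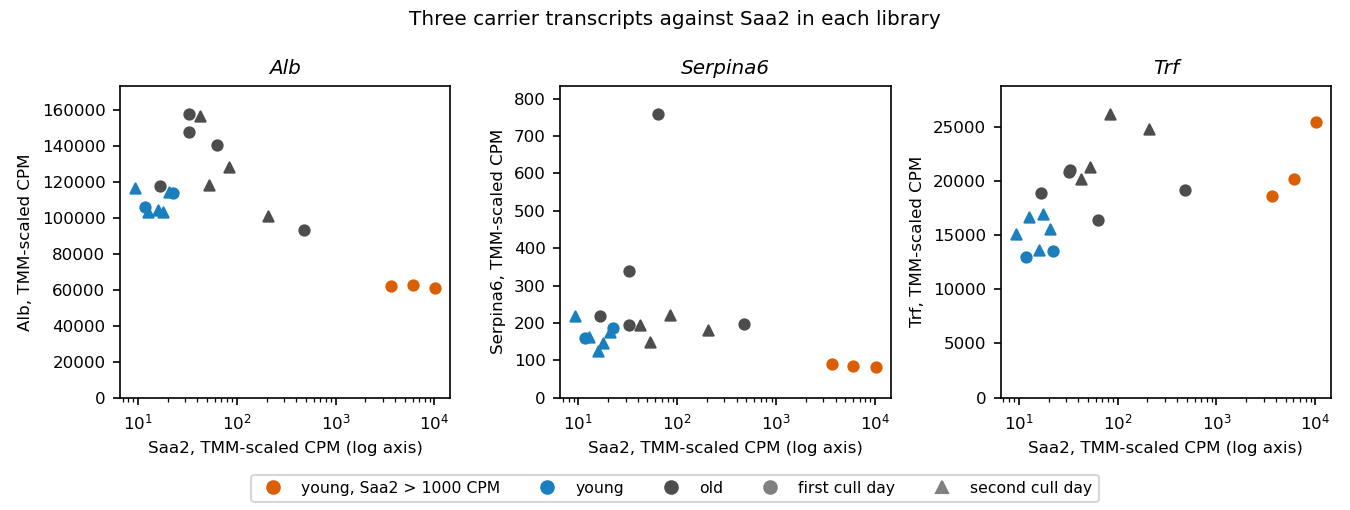
Alb, Serpina6 and Trf (TMM-scaled CPM) against Saa2 (TMM-scaled CPM, log axis) in each library. The 3 orange libraries, apart on the right, were chosen by Saa2, and old libraries 1187 and 1236 have the highest Saa2 and the lowest Alb of the old group.

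As a share of all counts, the 9 genes took 13.3% ± 2.15 at 5 months (SD, n = 10) and 17.7% ± 1.77 at 24 months (SD, n = 9). The 8 genes other than Alb took 3.93% ± 0.279 and 4.66% ± 0.292. Without the high-Saa2 young libraries the young shares were 14.6% ± 0.479 and 3.87% ± 0.258 (SD, n = 7). With all 9 genes kept out of the scaling, Alb was 0.48 (edgeR adjusted p = 0.0249) and Serpina6 0.90 (edgeR adjusted p = 0.0263), again the only ones past the threshold.

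Markers of other liver cells moved with age in the same libraries. All 12 macrophage markers and all 11 stellate markers were higher in old mice in edgeR, as were 8 of 10 endothelial markers, against 16.3% of all genes. Summed macrophage markers ranged from 100 to 486 CPM in young and 67.7 to 3303 CPM in old libraries, where 3303 CPM was library 1187. Summed stellate markers ranged from 43.1 to 123 and 133 to 481 CPM, and endothelial markers from 167 to 311 and 175 to 588 CPM. None of these markers was at 0 in every library of either age. Lymphocyte markers summed to 0.195 to 0.710 CPM in young libraries and 1.12 to 37.1 CPM in old libraries, with 2.70 CPM the highest other than 1187, so the ages did not overlap. These sums cover 7 of the 8 lymphocyte markers listed, and 0 of them were high enough to test. Among single genes tested, 0.978% had every old library above every young one.

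Of 13 hepatocyte markers outside the 9 genes, 7 were lower and 1 higher in old mice, against 14.5% and 16.3% of all genes. Without the high-Saa2 young libraries these counts were again 7 and 1, and 11 of 12 macrophage, 11 of 11 stellate and 7 of 10 endothelial markers were higher. Their sum ranged from 33072 to 41221 CPM in young and 23743 to 37652 CPM in old libraries, with library 1187 lowest. In these preparations fewer cells of a type and less RNA per cell cannot be told apart. With the mean log2 level of 33 markers of other cells as a covariate, Alb (0.74, edgeR adjusted p = 0.0207) and Serpina6 (1.30, edgeR adjusted p = 0.0327) still passed. Ttr also passed (0.51, edgeR adjusted p = 0.0417), which makes 3 of 9 against 12.1% of 12269 genes, while Trf was 0.16 (edgeR adjusted p = 0.527). Afp turned to -0.49 and Rbp4 to 0.16, neither past the threshold.

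Genes around the carriers were read from the same fit. Of 19 other plasma carriers tested, 6 were higher and 0 lower (all genes 16.3% and 14.5%), with 1 lower at an unadjusted p under 0.05 and 1 lower in DESeq2 and in limma-voom. Their median log2 fold change was 0.27. On the first cull day alone 0 were called in edgeR, with 4 higher at an unadjusted p under 0.05, and with the other-cell covariate 4 were higher and 0 lower, with medians of 0.077 and 0.095. On the second cull day alone 7 were higher and 1 lower (all genes 12.2% and 7.15%), with a median of 0.28. The counts were 8 and 1 without the high-Saa2 young libraries (all genes 14.6% and 12.5%). Serpina7, thyroxine-binding globulin, averaged 59.2 ± 22.2 CPM at 5 months (SD, n = 10) and 163 ± 69.7 CPM at 24 months (SD, n = 9). Serpina7 rose by 1.46 on the log2 scale (SE 0.252, edgeR adjusted p = 0.000535), and also passed without the high-Saa2 young libraries (SE 0.292, edgeR adjusted p = 0.00166). Afm, the vitamin E binding afamin and the next gene of the albumin cluster, lies 10041 bases beyond Afp. Afm rose by 0.53 (SE 0.133, edgeR adjusted p = 0.00727) and, unlike Alb, still passed without the high-Saa2 young libraries (0.29, SE 0.0922, edgeR adjusted p = 0.03). Whether Afm and Alb differ in their age effect was not tested.

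Of 16 receptors and uptake partners tested, 1 was higher and 3 lower, with a median of -0.072, against 16.3% and 14.5% of all genes, and the counts were the same without the high-Saa2 young libraries. Lrat, which esterifies retinol and marks stellate cells, rose by 1.52 (SE 0.182, edgeR adjusted p = 3.72e-05). Dio1, which activates thyroxine, fell by 1.40 on the log2 scale (SE 0.253, edgeR adjusted p = 0.00075), and the uptake transporter Slco1b2 fell by 0.41 (SE 0.0994, edgeR adjusted p = 0.00599). Of 22 factors known to act on albumin-family genes or the acute-phase response, 5 were lower and 0 higher, in DESeq2 6 and 0 and in limma-voom 5 and 0. All genes had 14.5% lower in edgeR and 17.2% in DESeq2. None of the 22 was higher at an unadjusted p under 0.05 in these 3 fits. When those young libraries with high Saa2 were left out 6 were lower and 1 higher, Stat3 (0.66, SE 0.151, edgeR adjusted p = 0.00657), which was 2.36 times as high in the removed as in the other young libraries. On the second cull day alone 5 were lower and 1 higher (all genes 7.15% and 12.2%). On the first 0 were called in edgeR, with 3 lower at an unadjusted p under 0.05, and with the other-cell covariate 2 were lower and 0 higher, with 1 higher at an unadjusted p under 0.05. Zbtb20, a repressor of Afp, fell by 1.04 (SE 0.255, edgeR adjusted p = 0.00589) from 4.06 CPM, and the clock-controlled factor Tef fell by 0.57 (SE 0.151, edgeR adjusted p = 0.00944). Lrat, Dio1, Slco1b2, Zbtb20 and Tef each passed in the same direction without the high-Saa2 young libraries.

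Only 3 of 12 fetal liver and Zhx2-linked genes were high enough to test. Lpl, lipoprotein lipase, rose by 1.79 (SE 0.467, edgeR adjusted p = 0.0087), with 28.2 ± 40.6 CPM in old libraries (SD, n = 9), an SD above its mean. Elovl3, a fatty acid elongase, fell by 0.94 (SE 0.301, edgeR adjusted p = 0.0243). Both passed without the high-Saa2 young libraries (1.85 and -1.14, edgeR adjusted p = 0.0329 and 0.0215). Neither passed on the first cull day alone or with the other-cell covariate, where none of the 3 had an unadjusted p under 0.05.

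Positive acute-phase genes gave 0 of 25 past the threshold in either direction in edgeR, with 2 higher and 1 lower at an unadjusted p under 0.05. DESeq2 called 1 higher and 1 lower, and limma-voom 2 higher. The cull days differed in these counts. On the first, which held the high-Saa2 young libraries, 0 of 25 were called in edgeR, 6 were lower at an unadjusted p under 0.05, and the median was -0.69. On the second, 22 of the 25 were higher in old mice and 0 lower, against 12.2% of all genes tested higher, with a median of 1.23. With the other-cell covariate 0 were higher and 1 lower, and the median was -0.66. With the high-Saa2 young libraries left out 21 of 25 were higher. That count is no support for an age difference, because libraries high in an acute-phase gene were removed from 1 age only. Hp, the hemoglobin carrier haptoglobin, was 4.99 times as high in the removed as in the other young libraries, and Hpx, the heme carrier hemopexin, 3.66 times. Over all 19 libraries Hp was 0.49 (SE 0.416, edgeR adjusted p = 0.389) and Hpx 0.61 (SE 0.338, edgeR adjusted p = 0.179).

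Likeness of pattern was measured as Pearson's r of log2 CPM over 19 libraries after age by cull day means were removed, among 7016 genes of at least 10 CPM. These values describe libraries that share depth and scaling, and carry no test. Closest to Alb was Afm (r = 0.909), followed by Lactb (0.877), Rmdn2 (0.877), Dlat (0.865) and Il1rap (0.863). Most opposite were Saa1 (-0.870) and Saa2 (-0.865). Without the high-Saa2 young libraries r was 0.774 for Afm and -0.670 for Saa2, over 16 libraries. Dlat was then at 0.783, so Afm was no longer the closest to Alb. For Afp the closest were Adpgk (0.902), Cndp2 (0.901), Arpc3 (0.897), Mpp1 (0.889) and Arpc4 (0.882), and the most opposite Unc119b (-0.786) and Letm1 (-0.769). Afp was above 1.39 CPM in old library 1187 alone, and no r for Afp was taken without that library.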

How the data were processed

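The authors deposited 1 table of expected counts per gene for 19 libraries. Per the file headers it was written by HOMER for mm10, counting reads over exons of RefSeq transcripts, 1 per gene, without normalization. STAR and HOMER are named in the submitters' processing notes. Their versions, read handling and the strand setting are not given in the sources used here. The transcript length in bases is the deposited one. Deposited values were multiples of 0.5 (29.2% not whole) and were rounded to whole counts, ties to even, since the tests had been set for counts. Counts over genes averaged 19036483 ± 807111 (SD, n = 19), with 78.3% to 86.5% of each column header's total in genes.

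Age was tested with edgeR 4.0.16 (quasi-likelihood, R 4.3.3) with TMM scaling, filterByExpr (minimum count 10), cull day as covariate and Benjamini-Hochberg adjustment over all 12269 genes tested. SE is the absolute log2 fold change over the square root of F. DESeq2 1.42.0 and limma 3.58.1 were alternatives. The scripts were checked on simulated counts. Log2 CPM used a prior count of 2. No paired analysis was possible because every library number is unique. Since the labels do not state separate mice, p-values measure only the spread between these libraries.

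The members, gene lists and libraries left out were chosen with earlier results of these data known. Named genes were the 9 members, Saa2, the 2 smallest p in each direction of each context list, and for Alb and Afp the 5 most and 2 least alike genes. Positions are mm10, counted from 1. Python 3.11.15 drew the figures.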

Additional observations from a re-analysis of the deposited data

Results flagged for a closer look

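In 18 groups tested (9 genes at each age), 4 had 1 library far from the rest by Dixon's test, where chance flags about 1 in 20 groups. All 4 were in old mice.

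Afp in library 1187 was 4.29 CPM, where the remaining 8 libraries of that age lay between 0.589 and 1.03 CPM. The same library had the highest summed macrophage, endothelial, stellate and lymphocyte markers and the lowest summed hepatocyte markers of the 19, and their part in the result was not tested.

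Library 1189 carried the other 3. Serpina6 was 758 CPM there, 3.85 times the median of the other 8 old libraries, with the next library at 339 CPM. Fetub was 1035 CPM, 2.38 times that median, with the next at 505 CPM. Ahsg was 10830 CPM, 1.55 times that median, with the next at 8205 CPM. In the same library Trf was the lowest of the old group, at 16360 CPM, and Ttr and Rbp4 were the second lowest, at 5303 and 1805 CPM. Its summed macrophage markers were 314 CPM and its summed hepatocyte markers 31575 CPM, both inside the range of the other old libraries, while its cholangiocyte markers were the highest of the old group at 63.5 CPM. Their part in these values was not tested.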

How the results depend on the processing

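The count of 2 members called higher was 4 with library totals alone, DESeq2 or limma-voom, 1 without the filter on low counts, 0 with the first cull day alone and 1 with the second alone. It was also 1 without the high-Saa2 young libraries, with or without a cull day term, and 1 when old libraries 1187 and 1189 were left out as well. Leaving out 1 library gave 0 to 3, lowest without young library 1188, and 1 without young library 1184 or old library 1242. No member was called lower under any of the 35 alternatives. The count of all genes called moved from 3785 to 450 (first cull day alone), 2389 (second alone) and 1489 with the other-cell covariate, and ranged from 3014 to 3949 when 1 library was left out. Library totals alone made 64.2% of called genes higher, against 53.0% with TMM, and moved the median over all genes from -0.003 to 0.042. No member passed the interaction of age and cull day in edgeR (0 of 12269 genes, 0.0%) with 799 genes (6.51%) at an unadjusted p under 0.05, nor in DESeq2, which called 10 genes.

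No estimate that changed sign passed the threshold. Afp was -0.49 with the other-cell covariate, -0.15 without library 1187 (-0.15 to 0.44 with each library left out in turn), -0.076 without libraries 1187 and 1189, and -0.075 without these and the high-Saa2 young libraries. Ttr was -0.036 on the second cull day and -0.018 without the high-Saa2 young libraries, or -0.069 with no cull day term there. Rbp4 was 0.038 on the first cull day and 0.16 with the covariate. Ahsg was -0.0062 without library 1189 (-0.0062 to 0.11 with each library left out in turn). Over all alternatives Alb ranged from 0.22 to 0.74, Serpina6 from 0.18 to 1.51 and Trf from 0.087 to 0.58, each with 1 direction. The cause was not tested. At 1 CPM in 9 libraries Afp was not tested. Settings that leave out 1187 and 1189, and unrounded counts, were added after seeing the data. Depth limits Afp alone, at 11 to 98.5 counts per library.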
